A study of Mus musculus with 12 samples.

Results

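The imprinted growth genes are 10 genes that were picked by symbol from the 54532 genes of the count table: H19, Igf2, Peg3, Mest, Dlk1, Meg3, Cdkn1c, Plagl1, Grb10 and Ndn. All 10 symbols were found, each in 12 libraries. Male mice received an adeno-associated virus (AAV8) through the tail vein at 10 weeks of age, and RNA of their liver and subcutaneous fat was sequenced 16 weeks later. In the hHKDC1 OE mice the vector carried human HKDC1, a hexokinase family gene, behind the hepatocyte promoter TBGp, and in the control mice it was the null vector. All mice were kept on a low-fat diet, and each tissue and vector had 3 libraries from 3 mice, so that 12 libraries form 4 groups. The strain was not given in the sources used here. In their descriptions, hHKDC1 OE replicates 2 and 3 of each tissue are called knockouts, whereas their titles and treatment labels call them overexpression, and the titles set the groups used here. The transgene is human and every row of the table is a mouse gene, so its level could not be read as a check of the labels. The mouse Hkdc1 row held 0 to 8 counts in the 12 libraries.

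An imprinted gene is expressed mainly from the copy inherited from 1 parent, because methylation laid down in the germ line marks the copies differently. Many of these genes act on growth before birth and fall to low levels after weaning. Igf2, Mest, Peg3, Plagl1, Ndn and Dlk1 are expressed from the paternal copy, and H19, Meg3 and Cdkn1c from the maternal copy, as is Grb10 in most tissues outside the brain. H19 is made in skeletal muscle after birth, and Mest is known in white fat as a gene whose level follows the expansion of the depot. The reads were not assigned to parental copies, so imprinting itself was not measured.

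All 10 genes lie on 5 chromosomes of the mouse genome (GRCm38). H19 (chr7:142575529-142578143) and Igf2 (chr7:142650766-142666816) are neighbours on chromosome 7, which also holds Cdkn1c (chr7:143458339-143461050), Ndn (chr7:62346569-62350262) and Peg3 (chr7:6703892-6730431). Dlk1 (chr12:109452823-109463336) and Meg3 (chr12:109541001-109571726) are neighbours on chromosome 12. Mest (chr6:30723547-30748465), Plagl1 (chr10:13060504-13131694) and Grb10 (chr11:11930508-12038683) each lie alone. H19 and Meg3 are long noncoding RNAs, and the other members code for proteins. The libraries carried no strand, so reads in exons shared with a neighbour cannot be told apart. Of the exonic bases, 64.5% were shared for Igf2, mostly with the readthrough gene model Gm49394. The share was 30.7% for Cdkn1c, with Gm44732 on the other strand, and 23.1% for Mest, with Copg2 on the other strand. It was 9.15% for H19, 8.29% for Meg3, 0.486% for Plagl1 and 0 for Peg3, Dlk1, Grb10 and Ndn.

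H19, Mest, Igf2 and Meg3 have microRNA genes annotated within them on the same strand. The mature sequences from H19 and Mest are shown because these hosts, Igf2 aside, are the members whose levels ranged most widely in fat. Igf2 holds Mir483, and Meg3 holds Mir770 and Mir1906-1. H19 holds the miR-675 hairpin in an exon and Mest holds the miR-335 hairpin in an intron. The sequences are from RefSeq on GRCm38.p6, 5′ to 3′, with the seed (bases 2 to 8) in capitals. The miR-675 products lie on the minus strand at chr7:142577112-142577133 and chr7:142577078-142577099, and miR-335-5p lies on the plus strand at chr6:30741314-30741336. The 4 seeds differ from each other.
mmu-miR-675-5p: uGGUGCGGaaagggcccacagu
mmu-miR-675-3p: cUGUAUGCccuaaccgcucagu
mmu-miR-335-5p: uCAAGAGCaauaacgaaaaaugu
mmu-miR-335-3p: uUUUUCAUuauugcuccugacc
The count table has rows for the hairpin genes of H19 and Mest. Mir675 had 0 counts in all 12 libraries, and Mir335 had 5 counts in hHKDC1 OE fat replicate 2, 1 count in null fat replicate 3 and 0 in the other libraries. These libraries were made from long inserts, so the mature microRNAs were not measured.

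Among the members with more than a few counts, H19 was the one whose level differed most between fat libraries, and the difference ran within each group. H19 stood at 76.8, 53.7 and 1.23 CPM (counts per 1000000, scaled by library size and TMM factor) in null fat replicates 1, 2 and 3. In hHKDC1 OE fat it stood at 46.4, 2.88 and 6.09 CPM. Each group thus held high and low libraries, and the groups overlapped over nearly their whole range. The group means were 43.9 ± 38.7 CPM (SD, n = 3) in null fat and 18.5 ± 24.3 CPM (SD, n = 3) in hHKDC1 OE fat. H19 was chosen for its relation to muscle in these libraries, so its difference between the fat groups is given as a description with no p, although its row was part of the fit.

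The muscle level of a library was read from Acta1, the actin of skeletal muscle fibres, and Ckm, the creatine kinase of muscle. Their summed level was 7905, 8198 and 223 CPM in null fat replicates 1, 2 and 3, and 5710, 411 and 1021 CPM in hHKDC1 OE fat replicates 1, 2 and 3. The same 3 libraries, null fat 1 and 2 and hHKDC1 OE fat 1, were highest for H19 and for the muscle pair, and the same library, null fat 3, was lowest for both. H19 and the muscle pair gave the libraries the same order but for the upper 2 places, which null fat 1 and 2 exchanged. The summed level of 28 markers of skeletal muscle fibres gave the order of the pair, from 993 CPM in null fat 3 to 41999 CPM in null fat 2. Acta1 and Ckm are among these 28 markers, so this sum is not independent of the pair.

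H19 was then set against the muscle pair within each library. Null fat replicates 1, 2 and 3 had 9.71, 6.55 and 5.52 H19 counts per 1000 Acta1 and Ckm counts, and hHKDC1 OE fat replicates 1, 2 and 3 had 8.13, 7.02 and 5.96. The highest of these 6 values was 1.76-fold the lowest, whereas H19 itself ranged 62.4-fold and the muscle pair 36.8-fold. The groups overlapped in the ratio too. The ratio was not the same in all libraries beyond counting error, since the exact 95% Poisson interval was 9.2 to 10.3 in null fat 1 and 6.1 to 7.0 in null fat 2. The intervals were wide where H19 was low, at 3.50 to 8.28 in null fat 3, which rested on 23 H19 counts. They cover counting error of H19 only. In bulk tissue, more muscle cells and more RNA per muscle cell cannot be told apart.

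**Figure D1:**
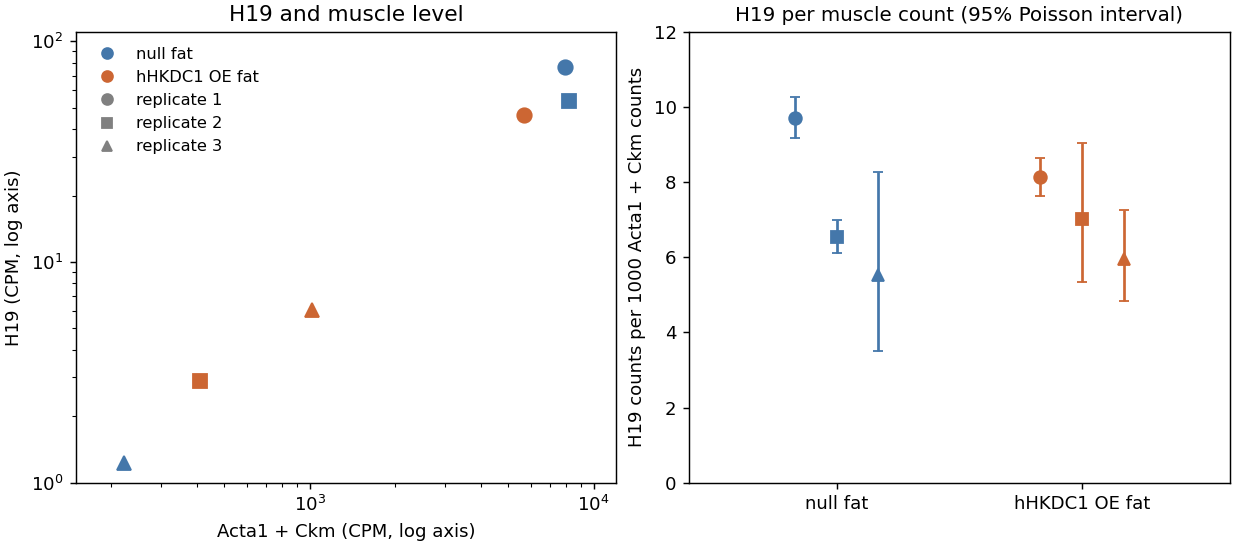
Left, H19 against the sum of Acta1 and Ckm in the 6 fat libraries, both in CPM on log axes; right, H19 counts per 1000 Acta1 and Ckm counts by group, with exact 95% Poisson intervals as bars. Colours are groups and marker shapes are replicates. H19 climbs with the muscle level from 1.23 to 76.8 CPM in libraries of both groups, and the ratio stays between 5.52 and 9.71.

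Across the 6 fat libraries, the genes whose log2 CPM was most like that of H19 were Wfdc1, Mylf-ps, Itgb1bp2, Mrpl42 and Acta1, among 14960 genes with a mean of at least 1 CPM. Pearson's r was 0.9996 for Wfdc1 and 0.996 for Acta1, which encodes the fibre actin named above, and Ckm ranked 16 with r = 0.994. Itgb1bp2 encodes melusin, a protein of striated muscle. Pearson's r does not measure the size of a change, and Mrpl42 ranged only from 40.0 to 57.8 CPM over the 6 libraries. The 6 points fall into 3 muscle-rich and 3 muscle-poor libraries, with H19 and the muscle pair in the same order within the muscle-poor ones. The values of r therefore describe few points that stand apart. The other members compared had r with H19 from -0.63 for Meg3 to 0.29 for Cdkn1c.

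In liver, H19 was near the limit of detection. It had 1, 7 and 2 counts in null liver replicates 1, 2 and 3, and 1, 2 and 10 counts in hHKDC1 OE liver replicates 1, 2 and 3. Acta1 had 53 to 111 counts in null liver and 56 to 125 counts in hHKDC1 OE liver.

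Without the transgene, Peg3, Grb10 and Cdkn1c, the members with at least 10 counts in every null library, were higher in fat than in liver. Of the 10 members, 9 passed the filter on low counts in the comparison of null fat with null liver, and all 9 were higher in fat at an adjusted p under 0.05 (edgeR quasi-likelihood test, Benjamini-Hochberg adjustment), though H19 was not called with limma on log2(FPKM + 1). H19, Meg3, Plagl1 and Dlk1 did not pass the filter in the liver libraries alone and entered through fat, where they are high, so the filter set their direction and the count of 9 lends the list no support. Over all genes tested, 64.3% were called in either direction and 33.8% as higher in fat, and the median log2 fold change was 0.09. Levels are compared between genes in FPKM, which accounts for gene length. In null fat Mest was the most abundant member, at 56.8 ± 23.8 FPKM (SD, n = 3), and it was at 0.344 ± 0.227 FPKM in null liver. H19 (13.1 ± 11.6 FPKM), Cdkn1c (8.50 ± 0.236 FPKM) and Ndn (8.07 ± 2.16 FPKM) followed in null fat. Plagl1 (5.94 ± 0.543 FPKM), Peg3 (5.77 ± 1.35 FPKM) and Grb10 (5.46 ± 1.02 FPKM) formed a close group. Meg3 was lower, at 0.849 ± 0.385 FPKM, and Dlk1 stood at 0.243 ± 0.0787 FPKM. All 9 had every null fat library above every null liver library, as had 39.3% of all genes tested. From H19 to Grb10 the ranges of members next to each other in this order overlapped, although Cdkn1c lay wholly above Plagl1, Peg3 and Grb10, and the ranges of Mest, Grb10, Meg3 and Dlk1 did not overlap each other.

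The fold between tissues differed from member to member. Mest, which encodes a hydrolase-fold protein, was higher in fat by 7.29 on the log2 scale (SE 0.59, adjusted p = 2.51e-05). Plagl1, a zinc finger factor that restrains the cell cycle, was higher by 6.20 (SE 0.40), Ndn, a MAGE family protein, by 5.10 (SE 0.29), and Peg3, a zinc finger protein, by 4.68 (SE 0.25). Meg3 was higher by 4.90 (SE 0.46) and Grb10, an adaptor that dampens insulin and IGF receptor signalling, by 3.88 (SE 0.36). With limma on log2(FPKM + 1), a scale that shrinks the folds of low genes, the differences were smaller. They were 5.34 for Mest, 2.69 for Plagl1, 2.86 for Ndn, 2.46 for Peg3, 0.83 for Meg3 and 2.25 for Grb10. Cdkn1c, the cyclin-dependent kinase inhibitor p57, had the least difference in edgeR at 2.71 (SE 0.26, adjusted p = 5.37e-05). With limma on log2(FPKM + 1) it was higher by 2.09, more than Meg3 (0.83) and Dlk1 (0.31). H19 was higher by 6.73, with the widest error (SE 1.54, adjusted p = 0.00558), and lost its call with limma on log2(FPKM + 1), where it was higher by 2.89 (adjusted p = 0.0536). The muscle genes moved with it, since Acta1 was higher in null fat by 8.90 and Ckm by 8.23. In null fat 3, the library lowest in muscle RNA, H19 was at 0.379 FPKM, against at most 0.251 FPKM in null liver, and its higher mean in null fat came from the 2 muscle-rich libraries. Dlk1, the preadipocyte factor Pref-1, had 0 counts in all 3 null liver libraries and 20 to 44 counts in null fat. Against a floor of 3 counts over the 3 null liver libraries it was at least 29.3-fold higher in null fat.

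**Figure D2:**
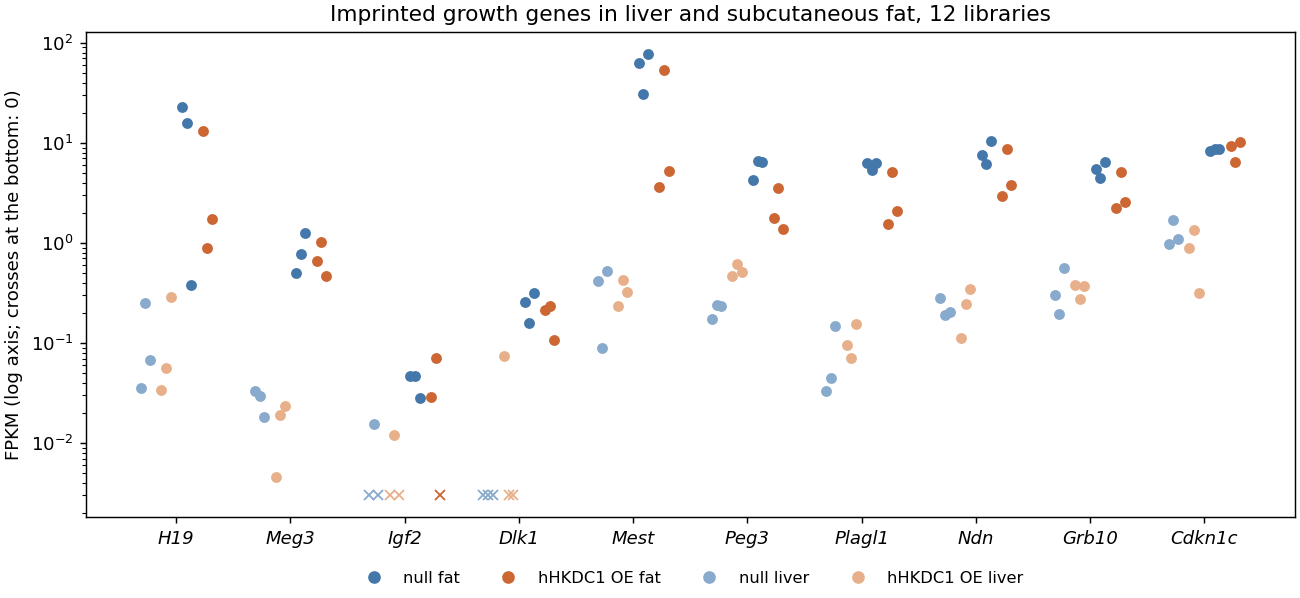
FPKM of each member in the 12 libraries on a log axis, 1 point a library, coloured by tissue and vector, with crosses at the bottom for libraries at 0. The fat libraries lie above the liver libraries for all members but Igf2, whose values lie below 0.1 FPKM in both tissues; in null libraries Mest reaches 76.9 FPKM in fat and 0.526 FPKM in liver.

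Igf2, the fetal growth factor that signals through the IGF1 receptor, was hardly detected in either tissue. It had 6, 6 and 4 counts in null fat, 5, 11 and 0 counts in hHKDC1 OE fat and 0 or 1 count in each liver library. It did not pass the filter in any comparison. DESeq2 and edgeR with no filter did not call it, with adjusted p of 0.954 and 0.936 in fat and 0.201 and 0.236 between tissues, and the exons that it shares with Gm49394 limit what its row can count.

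In fat, 8 of the 9 members tested were lower in hHKDC1 OE than in null libraries, and 0 of them had an adjusted p under 0.05. In this edgeR comparison 0 of 16380 genes were called (0%), and 17.7% had an unadjusted p under 0.05, as did Peg3 and Plagl1 among the members. DESeq2 called 1446 genes (7.46%), of which Peg3 was the 1 member, and Peg3 was also the 1 member called by edgeR with no filter on low counts (2.69% of genes called) and with 12 libraries in 1 fit (5.13%). The median log2 fold change was -0.68 over the 9 members and -0.05 over all genes. This contrast was in view when the members were chosen, so these counts describe the list and lend it no support.

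Peg3 and Plagl1 were the members whose fat groups did not overlap, both lower in hHKDC1 OE. Among all genes tested, 10.2% had groups apart in that direction. Peg3 stood at 75.9, 122 and 113 CPM in null fat and at 34.4, 63.2 and 26.4 CPM in hHKDC1 OE fat. Plagl1 stood at 66.3, 57.2 and 64.3 CPM in null fat and at 17.4, 53.3 and 23.5 CPM in hHKDC1 OE fat. For both genes hHKDC1 OE replicate 2 came nearest to the null libraries. The log2 fold change of Peg3 was -1.33 (SE 0.35, adjusted p = 0.143 in edgeR), and that of Plagl1 was -0.995 (SE 0.39, adjusted p = 0.258). With DESeq2 the adjusted p of Peg3 was 0.0107. Over the alternatives that kept all fat libraries it ranged from 0.0107 to 0.298.

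Igf2 aside, Mest had the widest spread among the remaining protein-coding members. It stood at 335, 166 and 400 CPM in null fat, and at 20.8, 282 and 29.5 CPM in hHKDC1 OE fat. hHKDC1 OE replicates 1 and 3 were far below every null library, and replicate 2 lay inside the null range. The log2 fold change was -1.44 (SE 0.97, adjusted p = 0.456), so the difference was within the spread between replicates. Its size depended on the fit, at -2.61 with the replicate block, -2.21 and -2.37 with limma on log2(FPKM + 1) and log2(FPKM + 0.1), and -0.95 and -0.99 without hHKDC1 OE replicates 1 and 3. None of these 5 fits called it, with adjusted p from 0.316 to 0.727.

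Grb10 gave the 6 libraries the same order as Mest on a smaller scale, and Ndn gave it but for null replicate 1, which fell below hHKDC1 OE replicate 2. Ndn stood at 38.0, 31.4 and 50.8 CPM in null fat and at 15.6, 42.9 and 20.2 CPM in hHKDC1 OE fat. Grb10 stood at 67.3, 55.5 and 77.7 CPM in null fat and at 29.1, 62.3 and 33.6 CPM in hHKDC1 OE fat. In both genes, as in Mest, null replicate 2 was the lowest null library and hHKDC1 OE replicate 2 the highest library of its group. The log2 fold changes were -0.61 (SE 0.39, adjusted p = 0.436) for Ndn and -0.68 (SE 0.30, adjusted p = 0.298) for Grb10.

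Cdkn1c, Meg3 and Dlk1 had smaller differences between the groups. Cdkn1c stood at 22.7, 24.2 and 23.3 CPM in null fat and at 27.1, 17.5 and 29.7 CPM in hHKDC1 OE fat, where replicate 2 was the lowest and not the highest. Meg3 stood at 12.3, 19.5 and 30.2 CPM in null fat and at 17.3, 24.9 and 12.2 CPM in hHKDC1 OE fat. Dlk1 was low throughout, at 1.95, 1.24 and 2.35 CPM in null fat and 1.75, 1.76 and 0.861 CPM in hHKDC1 OE fat, with null replicate 2 the lowest null library as in Mest. Their groups overlapped, and the log2 fold changes were 0.08 (SE 0.22, adjusted p = 0.857), -0.19 (SE 0.39, adjusted p = 0.812) and -0.34 (SE 0.47, adjusted p = 0.717). The direction for Cdkn1c turned with limma on FPKM values, and that for Cdkn1c and Meg3 also turned when single libraries were left out.

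**Figure D3:**
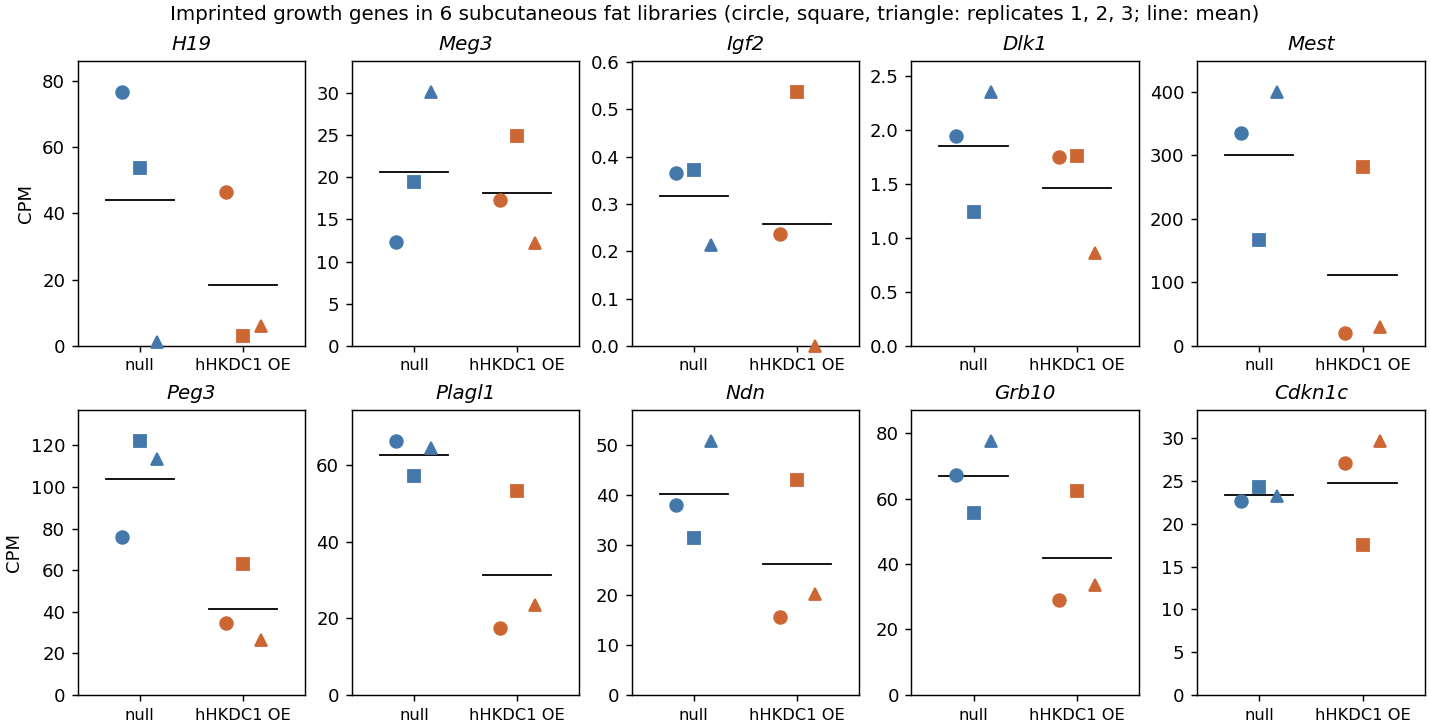
CPM of the 10 members in the 6 fat libraries, 1 panel a gene with an axis from 0, blue for null and orange for hHKDC1 OE, with circle, square and triangle for replicates 1, 2 and 3 and a line at the group mean. In Mest, Plagl1, Ndn and Grb10 the hHKDC1 OE square lies near the null points while the circle and triangle lie below them; Mest reads 20.8 and 29.5 CPM there against 282 CPM in the square.

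In edgeR with 1 fat library left out, the number of members called depended on hHKDC1 OE fat replicate 2. Without that library, Mest, Peg3, Plagl1, Grb10 and Ndn, 5 of 9 members, were lower at an adjusted p under 0.05. Over all genes, 3251 of 17190 were called (18.9%, and 7.53% as lower). The members were chosen with the fat contrast in view, so the count of 5 describes the list and lends it no support. The log2 fold change was then -3.59 for Mest, -1.78 for Peg3, -1.63 for Plagl1, -1.17 for Ndn and -1.10 for Grb10. Leaving out any of the other 5 fat libraries gave 0 members called.

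**Figure D4:**
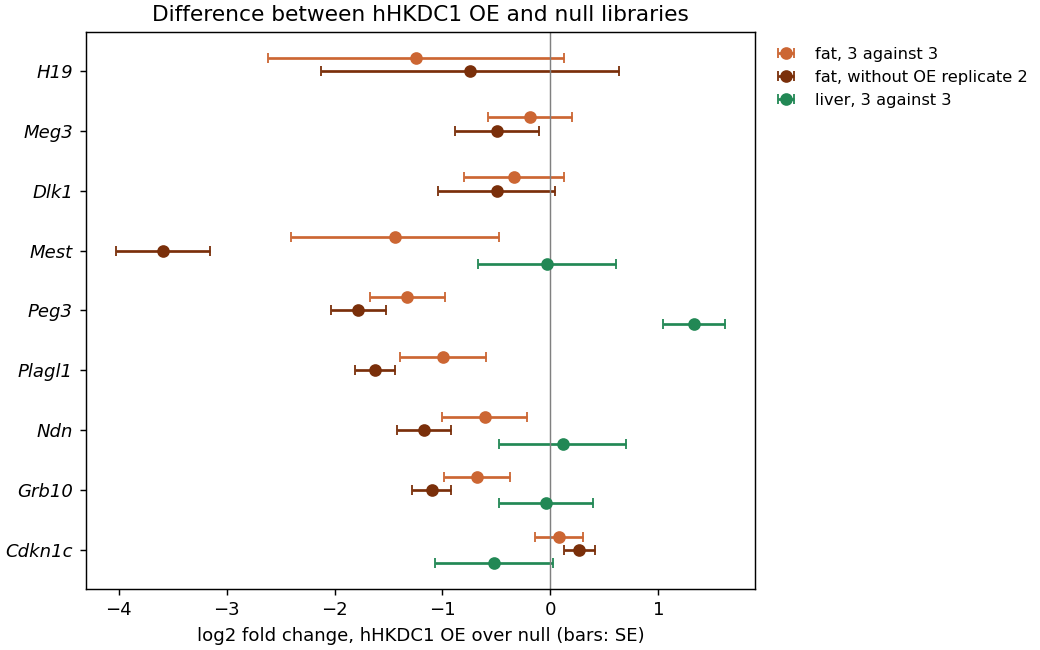
Log2 fold change of hHKDC1 OE over null for each tested member, with bars of 1 SE, in fat with 3 against 3 libraries, in fat without hHKDC1 OE replicate 2, and in liver. Mest moves from -1.44 to -3.59 when that library is left out, and Peg3 is on opposite sides of 0 in fat (-1.33) and liver (1.33).

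Across the 6 fat libraries the log2 CPM of Mest had a Pearson r of 0.995 with Grb10, 0.979 with Plagl1, 0.978 with Ndn, 0.84 with Peg3, 0.59 with Dlk1, 0.48 with Meg3, -0.27 with H19 and -0.75 with Cdkn1c. These values describe 6 points in which hHKDC1 OE replicates 1 and 3 stand apart. Copg2, the neighbour whose exons overlap those of Mest, ran alongside at 101, 86.8 and 113 CPM in null fat and 44.8, 107 and 48.1 CPM in hHKDC1 OE fat (r = 0.996). The gene most like Mest was Klf14, an imprinted factor, with r = 0.9985, at 9.85, 3.97 and 11.5 CPM in null fat and 0.239, 8.31 and 0.492 CPM in hHKDC1 OE fat. Lep, the adipocyte hormone leptin, stood at 2344, 1528 and 2436 CPM in null fat and 317, 2614 and 348 CPM in hHKDC1 OE fat. The list of genes like Mest and the look at Klf14 and Lep were chosen after their values were seen.

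The upstream sequences of Mest and Grb10 are shown because these members ran closest together in fat and because methylation at CG pairs is what marks imprinted copies. Each window is the 250 bases before a RefSeq transcript start on GRCm38.p6, 5′ to 3′ on the gene's strand, with each CG in capitals, and neither window overlaps an annotated exon. The Mest window is chr6:30737800-30738049 on the plus strand and the Grb10 window is chr11:12037421-12037670 on the minus strand.
Mest: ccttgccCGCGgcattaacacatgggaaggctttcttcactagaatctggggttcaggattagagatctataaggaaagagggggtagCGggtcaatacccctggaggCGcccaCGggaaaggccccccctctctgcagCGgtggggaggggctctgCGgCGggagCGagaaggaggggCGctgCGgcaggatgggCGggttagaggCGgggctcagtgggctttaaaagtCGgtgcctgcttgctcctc
Grb10: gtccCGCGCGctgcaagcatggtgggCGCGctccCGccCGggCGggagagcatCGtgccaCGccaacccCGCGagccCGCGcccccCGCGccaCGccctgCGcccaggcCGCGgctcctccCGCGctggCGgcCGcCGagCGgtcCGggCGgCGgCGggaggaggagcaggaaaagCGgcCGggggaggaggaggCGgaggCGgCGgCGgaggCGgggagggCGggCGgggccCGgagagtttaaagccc
The Mest window shown held 14 CG pairs and the Grb10 window shown 40, the most among the windows of each gene. The table has 3 Mest windows, with 7, 14 and 14, and 2 Grb10 windows, with 8 and 40. Over all 32851 windows of that table the median was 6, and 70.6% of windows held fewer than the Mest window shown and 98.7% fewer than the Grb10 window shown. Windows were given for 8 of the 10 members, 15 windows in all, with 0 to 40 CG pairs and a median of 8. No methylation was measured here, so the letters describe the sequence only. Whether either window lies in the region that carries the imprint of its gene was not examined.

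RNA of other cell types differed between the same fat libraries. The summed level of 8 B cell markers was 1.92 to 3.53 CPM in null fat, and 831, 46.9 and 608 CPM in hHKDC1 OE replicates 1, 2 and 3. That of 8 T cell markers was 5.59 to 12.3 CPM in null fat and 501, 37.8 and 575 CPM in hHKDC1 OE fat. All 8 markers of each list had groups apart, higher in hHKDC1 OE, where 12.5% of all genes did. Replicates 1 and 3 were the lowest fat libraries for Mest, Peg3, Plagl1, Ndn and Grb10. They were also the libraries with the most lymphocyte RNA, and the part of lymphocytes in the members' levels was not tested. The 8 adipocyte markers summed to 23543 to 32827 CPM in null fat and 22052 to 29989 CPM in hHKDC1 OE fat. The 9 stromal markers summed to 2150 to 3470 CPM in null fat and to 1288, 3940 and 2361 CPM in hHKDC1 OE replicates 1, 2 and 3. Smooth muscle markers (5 genes) summed to 826 to 920 CPM in null fat and to 355, 922 and 435 CPM in hHKDC1 OE replicates 1, 2 and 3. Endothelial markers (5 genes) summed to 813 to 943 CPM in null fat and to 663, 980 and 712 CPM in hHKDC1 OE replicates 1, 2 and 3. Replicates 1 and 3 were thus also the lowest fat libraries for both of these lists, and the part of these cells in the members' levels was not tested. Keratin and other epithelial markers (8 genes) summed to 26.5 to 204 CPM in null fat and 14.2 to 20.5 CPM in hHKDC1 OE fat. Brown and beige fat markers (6 genes) summed to 59.6 to 152 CPM and 81.0 to 315 CPM. Markers of myoblasts and regenerating muscle (10 genes) summed to 23.0, 26.7 and 0.963 CPM in null fat replicates 1, 2 and 3. In hHKDC1 OE fat replicates 1, 2 and 3 they summed to 17.1, 1.17 and 3.07 CPM, so they gave the libraries the order of the muscle pair. Hepatocyte markers (10 genes) were read in fat too, at 2709 to 8037 CPM in null fat and 783 to 2195 CPM in hHKDC1 OE fat, so hepatocyte transcripts were counted in each fat library.

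In liver, Peg3 was the member that stood out. It had 27, 36 and 38 counts in null liver and 75, 118 and 96 counts in hHKDC1 OE liver, or 1.67, 2.35 and 2.36 CPM against 4.61, 6.28 and 5.12 CPM. Every hHKDC1 OE library was above every null library, as was so for 6.31% of the genes tested in that direction. The log2 fold change was 1.33 (SE 0.29), with an unadjusted p of 0.00114 and an adjusted p of 0.362 in edgeR, and was 0.33 with limma on log2(FPKM + 1). DESeq2 gave an adjusted p of 0.0471, and edgeR with no filter on low counts, under which 1.32% of genes were called, gave 0.0188. Over the alternatives with all libraries it ranged from 0.0188 to 0.809, the highest with limma on FPKM values. Even in hHKDC1 OE liver Peg3 was at 0.533 ± 0.0758 FPKM (SD, n = 3), against 5.77 ± 1.35 FPKM in null fat.

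The other members showed no difference in liver that exceeded the spread between libraries. Of the 10 members 5 passed the filter there, 0 were called, and over all genes 0 of 13351 were called (0%), with 6.94% at an unadjusted p under 0.05 and 94 genes (0.736%) called by DESeq2. Grb10 had 32, 20 and 62 counts in null liver and 41, 36 and 47 in hHKDC1 OE liver, with a log2 fold change of -0.04 (SE 0.44, adjusted p = 0.991). Mest had 19, 4 and 25 counts in null liver and 11, 24 and 18 in hHKDC1 OE liver (log2 fold change -0.03, SE 0.64), Ndn 8 to 12 and 5 to 18 counts (0.11, SE 0.59) and Cdkn1c 23 to 39 and 9 to 39 counts (-0.52, SE 0.55). H19, Meg3, Plagl1, Dlk1 and Igf2 did not pass the filter, and their highest liver count was 17, in Plagl1. The hepatocyte markers summed to 115690 to 118905 CPM in null liver and 72099 to 97314 CPM in hHKDC1 OE liver, and the adipocyte markers to 137 to 158 CPM and 126 to 169 CPM.

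Whether the vectors differed by unequal amounts in the 2 tissues was asked with an interaction term fitted to all 12 libraries. Of the 9 members tested 0 were called, as were 0 of 17070 genes (0%), with 2163 genes (12.7%) at an unadjusted p under 0.05 and 497 genes (2.88%) called by DESeq2. Peg3, lower in hHKDC1 OE fat and higher in hHKDC1 OE liver, had an interaction of -2.58 on the log2 scale (SE 0.44, unadjusted p = 7.18e-05, adjusted p = 0.139 in edgeR). With DESeq2 its adjusted p was 0.000199, and with no filter on low counts (1.53% of genes called) it was 0.000369. Without hHKDC1 OE fat replicate 2, where 6.77% of genes were called, Mest, Peg3 and Plagl1 were called. These calls too only describe the list, which was chosen with the fat contrast in view.

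Other imprinted genes were read in the same comparisons, from a list of 59 symbols that excluded the members. Of these, 42 passed the filter in fat, where 34 had lower and 8 had higher levels with hHKDC1 OE and 0 were called. Over all genes tested, 8824 of 16380 were lower. The median log2 fold change was -0.28 for this list against -0.05 over all genes. Groups were apart for 9 lower and 3 higher genes, where 10.2% of all genes tested were apart as lower and 12.5% as higher. Among the lower ones were Snrpn (-0.74, adjusted p = 0.186), a splicing protein gene, and Sgce (-0.54, adjusted p = 0.232), which encodes a sarcoglycan. In liver 31 were tested, 15 were higher and 16 lower, and 0 were called. Between null fat and null liver 39 were tested, with 21 called higher and 10 called lower in fat, beside 64.3% of all genes called and 33.8% called higher in fat. Some of the 21, such as Nnat, Zim1, Rian, Nap1l5, Klf14 and Slc22a2, had at most 10 counts in any null liver library. They passed the filter through fat, where they are high. The filter thus set their direction, and the count of 21 lends the list no support. Nnat, a small membrane protein gene, was at 369 to 679 FPKM in null fat and 0.145 to 0.454 FPKM in null liver (log2 fold change 10.69, adjusted p = 2.47e-06). Sgce (3.30) and the transporter gene Slc22a3 (3.06) were also higher in fat. Zim1, the neighbour of Peg3, Rian, a noncoding RNA gene near Meg3, and Nap1l5 were called higher too. They had at most 3, 10 and 6 counts in a null liver library, so their folds are not given. Klf14 and Slc22a2 were called higher in fat and had 0 counts in null liver. The transporter genes Slc38a4 (-5.44) and Slc22a18 (-4.36), Ddc (-5.43) and Tfpi2 (-3.40) were higher in liver.

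The IGF and insulin signalling genes, 21 in the list, gave the setting in which Igf2 and Grb10 act. In fat 20 passed the filter, with 18 below and 2 above their null level in hHKDC1 OE and 0 called, with a median of -0.32. Over all genes tested in fat, 8824 of 16380 were lower. Groups were apart for 3 lower genes, Insr (-0.48, adjusted p = 0.179), which encodes the insulin receptor, Irs1 (-0.14) and Akt2 (-0.24), and for 1 higher gene, Akt1 (0.24), of 20 tested, where 10.2% of all genes were apart as lower and 12.5% as higher, so these counts are no result about the list. In liver 18 were tested, 5 higher and 13 lower, and 0 were called, where 6530 of 13351 genes were lower. Between tissues 20 were tested, with 10 called higher in null fat and 5 higher in null liver, beside the 64.3% and 33.8% of all genes given above. Igf1, the growth factor that the liver secretes, was at 74.6 to 102 FPKM in null liver and 12.3 to 18.7 FPKM in null fat (log2 fold change -2.57, adjusted p = 3.90e-05). The binding protein genes divided between the tissues, with Igfbp6 (5.89) and Igfbp5 (4.66) higher in fat and Igfbp1 (-5.94), Igfbp2 (-5.73) and Igfbp4 (-2.37) higher in liver. Igfals (-1.28), which encodes the acid-labile subunit of the circulating IGF complex, was higher in liver. Igf1r (2.66), Igf2bp2 (2.07), Akt2 (1.38) and Irs1 (1.10) were higher in fat. Igf2bp3 was called higher in fat too, but had at most 3 counts in a null liver library and at most 26 in null fat. It passed the filter through fat, so the filter set its direction.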

How the data were processed

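Non-strand-specific paired-end libraries were mapped with STAR 2.5 (the study's methods also name a later release) and counted per gene with HTSeq 0.6.1, per the labels. The authors deposited whole-number counts without normalization. They also deposited FPKM values, of which 100% of 252371 above 0 were recomputed from counts, gene lengths and DESeq2 size factors within 1%. The gene length column (other) was used for this check. The study's methods name the human genome, whereas 99.8% of the gene identifiers are in GENCODE mouse release 21. Tables of the authors' own comparisons and group means were not used. Total counts were 15496019 to 19954971 per library, and no row named no gene.

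Tests were edgeR 4.0.16 quasi-likelihood fits (R 4.3.3, TMM, filterByExpr, Benjamini-Hochberg over all genes tested, threshold 0.05), in each tissue alone and, for the interaction, over 12 libraries. Alternatives were DESeq2 1.42.0, other scalings and filters, limma 3.58.1 on log2(FPKM + 1) or log2(FPKM + 0.1), and leaving out each library. With 3 against 3 libraries an exact permutation test cannot go below p = 0.10, so none was run. The procedures were run on simulated counts with known changes and a fixed spread. This does not measure their power at the spread of the fat libraries. The members and lists were chosen with earlier results of these data known. Named genes were the members, Acta1 and Ckm, list genes past the threshold (at most 12 a list and fit), the 5 genes most like H19 (Pearson r of log2(CPM + 0.01)) and genes overlapping a member. Others were named after their values were seen.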

Additional observations from a re-analysis of the deposited data

Results flagged for a closer look

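Peg3 was picked out because its treatment effect pointed in opposite directions in the 2 tissues, with every hHKDC1 OE library below every null library in fat and above every null library in liver. The effect in fat minus that in liver was -2.58 on the log2 scale (SE 0.44). It ranged from -2.66 to -1.43 over the alternatives with all 12 libraries, and from -3.23 to -2.45 with 1 library left out. The edgeR interaction test gave an unadjusted p of 7.18e-05 and an adjusted p of 0.139 over 17070 genes, so the difference failed the correction. The adjusted p ranged from 0.000199 with DESeq2 to 0.323 over the alternatives with all 12 libraries, and from 0.000725 to 0.343 with 1 library left out. The lowest of the latter came without hHKDC1 OE fat replicate 2. In fat, every hHKDC1 OE library also held more B cell and T cell marker RNA than every null library. The part of these cells in the level of Peg3 was not tested.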

How the results depend on the processing

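Of 509 values of single members under the alternatives, 472 kept their direction and their side of the threshold, 15 passed it only under the alternative, 1 lost it and 21 changed sign. With DESeq2 and with no filter on low counts, 1 member was called in fat, in liver and in the interaction, in each case Peg3, and with 12 libraries in 1 fit 1 was called in fat. Leaving out 1 library gave 0 to 5 members called in fat, 0 in liver, 9 between tissues and 0 to 3 in the interaction, the highest without hHKDC1 OE fat replicate 2. A minimum of 10 counts in every library left 3 members to test between tissues, and 3 were called. With limma on log2(FPKM + 1), H19 lost its call between tissues (adjusted p = 0.0536). With library size alone as the scaling, the all-gene median went from -0.05 to 0.11 in fat and from 0.09 to 0.98 between tissues, where the members moved with it (Mest from 7.29 to 8.19, Cdkn1c from 2.71 to 3.59).

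In fat, Meg3 ranged from -0.49 to 0.18 with 1 library left out (0.033 without hHKDC1 OE replicate 3), and Cdkn1c from -0.066 to 0.27, with -0.0033 and -0.0063 under limma (pseudocounts of 1 and 0.1). In liver, Mest was 0.048 with library size alone, 0.0998 with the replicate block and 0.091 with limma (0.1), and ranged from -0.48 to 0.43 with 1 library left out. Grb10 was 0.013, 0.070 and 0.027 under the same 3 settings and ranged from -0.33 to 0.49 with 1 library left out. Ndn was -0.0092 with limma (0.1) and ranged from -0.27 to 0.44 with 1 library left out. In the interaction, Meg3 was -0.079 and -0.049 with limma, and H19 ranged from -3.54 to 0.099 with 1 library left out. The cause was not tested.

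The sources used here do not say whether liver and fat libraries of 1 number came from the same mouse. The numbers were not treated as pairs, since correlations of same-numbered libraries did not all pass 0.1 in any comparison: 0.01, -0.12 and 0.03 in fat, 0.22, 0.18 and 0.09 in liver, and 0.24, 0.03 and 0.14 between tissues. Every library correlated best with its own number in liver, a hint from the data and not the design, but not in fat or between tissues. The replicate block left 0 members called in fat, in liver and in the interaction and 9 between tissues, and raised all genes called from 0 to 168 in fat, 17 in liver and 6 in the interaction. For 3 against 3 libraries, p-values rest on a spread from few mice, and in liver no member but Peg3 had more than 62 counts in a library.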
